A study of Mus musculus with 2 samples.

Results

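The genes examined here encode 9 structural proteins of the central myelin sheath, *Mbp*, *Mobp*, *Mag*, *Mog*, *Cnp*, *Mal*, *Cldn11*, *Opalin* and *Tspan2*. They were chosen by name, for what their proteins do, among 23951 gene names found in both libraries, and all 9 passed the filter of at least 1 FPKM in at least 1 library that left 14199 genes. RNA-seq was performed on optic nerves at P12, with 1 library from control mice (genotype Tcf7l2 c/+ with OLig1-cre, so that 1 allele is floxed) and 1 from *Tcf7l2*ΔHMG mutants (Tcf7l2 c/c with OLig1-cre). Both genotypes therefore carry the Cre driver, which is active in the oligodendrocyte (OL) lineage and excises the exon for the DNA-binding HMG box, and a shortened Tcf7l2 protein can still be made. The study as a whole used mice of both sexes, on a mixed strain background. The sex and the number of the animals behind each library are not given in the sources used here. Expression is in FPKM, a fragment count divided by transcript length and by the depth of the library, which allows levels of different genes to be compared. As each genotype had 1 library, the spread among animals is unknown and no test was made, so every difference below compares 2 libraries. In whole nerves, fewer OLs and less RNA per OL cannot be told apart.

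OLs wrap axons with many turns of membrane. Where the cytoplasm is squeezed out the turns fuse into compact myelin, held together on the cytoplasmic side by small basic proteins and sealed by tight junctions. Non-compact myelin keeps its cytoplasm, in the inner tongue next to the axon, the paranodal loops and narrow channels through the sheath, while the outermost turn faces the extracellular space. The genes were accordingly grouped by where the protein is found: compact myelin (*Mbp*, *Mobp*, *Cldn11*, *Mal*), non-compact myelin (*Cnp*, *Mag*, *Opalin*) and the outer surface (*Mog*). *Tspan2* encodes a tetraspanin of myelin and was given no place.

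Every one of the 9 genes was expressed at a lower level in *Tcf7l2*ΔHMG nerves than in control nerves, but by very different amounts. The largest difference was that of *Mobp*, which was at 24.3% of its control level, whereas *Mal*, *Mbp* and *Mog* were at 69.7%, 68.5% and 68.1% of theirs. The log2 ratio of mutant to control, computed after 0.1 was added to each FPKM, had a median of −0.83 over the 9 genes and of 0.05 over all genes tested. A fall by a fold change above 1.5, the cutoff used for the calls here, was found for 6 of the 9 genes, and 8.52% of all genes tested fell as much. Past a fold change of 2 there were 4 of the 9 (*Mobp*, *Mag*, *Tspan2* and *Cldn11*), against 3.68% of all genes. None of the 9 rose, while 15.4% of all genes were higher past the 1.5-fold cutoff. Among the 652 genes tested whose mean FPKM was at least that of *Opalin*, the lowest of the 9, the share that fell was 10.1%, and it was 7.44% over the 551 of them that are protein coding.

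**Figure D1:**
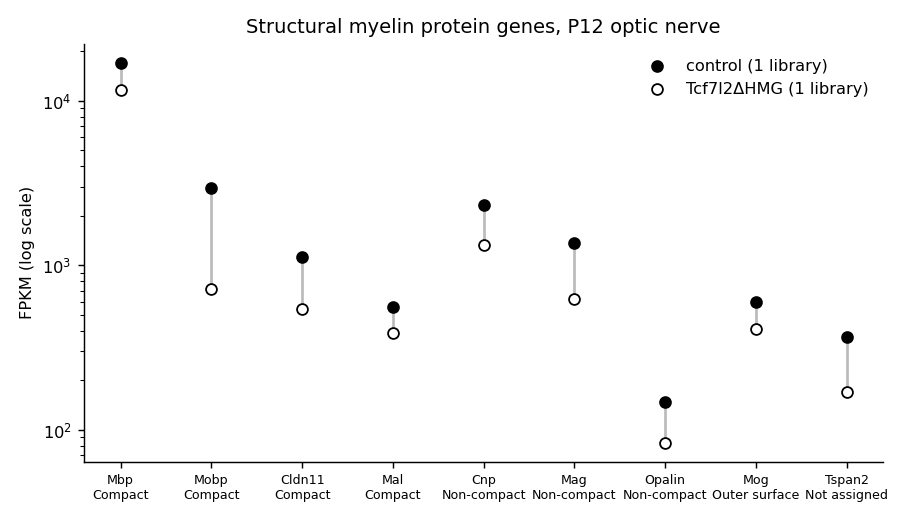
FPKM (log axis) of the 9 genes in the control library (filled circles) and the *Tcf7l2*ΔHMG library (open circles), ordered by the place of the protein in myelin, with 1 library per genotype and no error bars. The open circle lies under the filled one for every gene, and the gap is widest for *Mobp* (2959.3 to 718.9 FPKM).

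Among the genes of compact myelin, *Mbp* encodes myelin basic protein, which binds the cytoplasmic faces of the membrane to each other. Its level was 16989.6 FPKM in the control library and 11646.2 FPKM in the mutant library, a log2 ratio of −0.54 that did not pass the cutoff. *Mbp* was the highest of all genes tested in control nerves and was second in mutant nerves, after *Ptgds*, a prostaglandin D synthase gene which was at 6009.2 FPKM in control nerves and 12779.7 FPKM in mutant nerves. The row spans 110515 bases in the mm9 positions of the files (chromosome 18, 82644515 to 82755029) and 3 transcription start groups, so its FPKM sums the transcripts from all of them.

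*Mobp* encodes another small basic protein of compact myelin. It lies on chromosome 9 from 120058805 to 120095784 (mm9) and fell from 2959.3 to 718.9 FPKM, 4.12-fold, a log2 ratio of −2.04. It ranked as the 7th most abundant gene tested in control nerves and as the 72nd in mutant nerves. Of the 14199 genes, 1.61% had a lower log2 ratio, but among the 551 protein-coding genes as abundant as these 9 there were 5. They are *Rinl*, *S100a3*, *Nasp*, *Snrpn* and *Snurf* (named after their values were seen). *Rinl*, *S100a3* and *Nasp* took the FPKM of a row merged with a neighbouring gene in the control library only. *Snrpn* and *Snurf* were in merged rows in both libraries, with the same values (231.0 to 53.4 FPKM, log2 ratio −2.11).

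*Cldn11*, on chromosome 3 from 31048842 to 31063248 (mm9), encodes claudin-11, the tight-junction protein between turns of compact myelin. It fell from 1123.0 to 542.9 FPKM (log2 ratio −1.05). *Mal*, on chromosome 2 from 127458962 to 127482431 (mm9), encodes a small proteolipid of glycolipid-rich membrane. It was measured at 557.2 FPKM in control nerves and 388.6 FPKM in mutant nerves, and its log2 ratio of −0.52 was the one nearest to 0 among the 9 genes. In compact myelin *Mobp* and *Cldn11* were past the cutoff and *Mbp* and *Mal* short of it, and the median of the 4 log2 ratios was −0.80. That split depended on the scale, as *Mbp* passed after centring on the median of all genes tested (−0.592) or scaling to the 75th percentile (−0.594), and both *Mbp* (−0.615) and *Mal* (−0.590) passed with named rows set to a common sum.

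All 3 genes of non-compact myelin fell past the cutoff, against 8.52% of all genes tested, and their median log2 ratio was −0.83. *Cnp*, on chromosome 11 from 100436253 to 100443053 (mm9), encodes the phosphodiesterase that keeps cytoplasmic channels open against compaction. It fell from 2318.0 to 1320.4 FPKM (log2 ratio −0.81). *Mag*, on chromosome 7 from 31684029 to 31699851 (mm9), encodes the adhesion protein that faces the axon. It fell from 1369.1 to 627.4 FPKM (log2 ratio −1.13), the largest fall in this group. *Opalin*, on chromosome 19 from 41136213 to 41151603 (mm9), encodes a sialylated transmembrane protein of OLs. It fell from 147.6 to 83.2 FPKM (log2 ratio −0.83), but the range allowed by its interval bounds (−1.11 to −0.49) took in the cutoff.

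At the outer surface, *Mog*, on chromosome 17 from 37147685 to 37160343 (mm9), encodes myelin oligodendrocyte glycoprotein. It was measured at 597.5 FPKM in control nerves and 406.7 FPKM in mutant nerves, and the log2 ratio of −0.55 did not pass the cutoff, although it did after centring (−0.602). *Tspan2*, on chromosome 3 from 102538693 to 102576233 (mm9), fell from 364.7 to 168.8 FPKM (log2 ratio −1.11). Compact and non-compact myelin hence overlapped in their log2 ratios, which ran from −2.04 to −0.52 in the former and from −1.13 to −0.81 in the latter, and their medians differed by less than the range within either group.

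**Figure D2:**
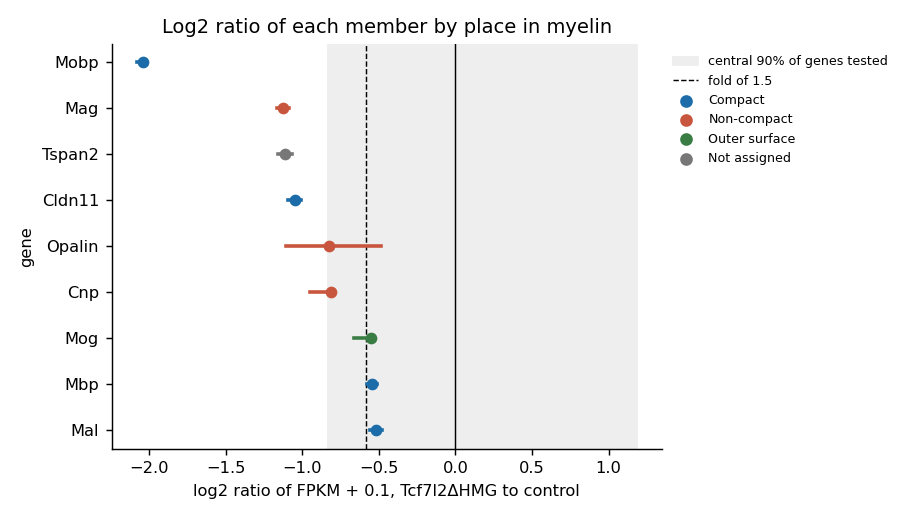
Log2 ratio of FPKM + 0.1 (*Tcf7l2*ΔHMG to control) for each of the 9 genes, coloured by the place of the protein. Lines show the range allowed by the Cufflinks bounds of both libraries, grey the central 90% of genes tested (−0.83 to 1.18) and the dashed line a fall of 1.5-fold. *Mobp* stands apart at −2.04, and *Mog*, *Mbp* and *Mal* lie between the dashed line and 0.

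The confidence intervals given by Cufflinks were apart between the libraries in all 9 genes, and 22.2% of all genes tested were likewise lower in mutant nerves with intervals apart. These intervals describe the estimate within 1 library. They are also only a partial measure of it, because 8 of the 9 genes had an FPKM beyond its own bounds in at least 1 library (7 in control and 5 in mutant nerves), with *Opalin* the exception. Bounds widened to take in the FPKM itself gave a log2 ratio between −2.08 and −2.02 for *Mobp*, between −1.16 and −1.09 for *Mag* and between −0.58 and −0.51 for *Mbp*. The widest range was that of *Opalin*, the gene with the lowest FPKM, from −1.11 to −0.49, and with *Mog* (−0.66 to −0.55) it took in the cutoff. In order of log2 ratio, the bounds of *Mobp* stood clear of those of the next gene, *Mag*, and the bounds of *Cnp* stood clear of those of *Mog*. All other neighbours overlapped, and the wide bounds of *Opalin* reached those of *Mog*, *Mbp* and *Mal* as well, so that within *Mag*, *Tspan2*, *Cldn11*, *Opalin* and *Cnp*, and within *Mog*, *Mbp* and *Mal*, adjacent genes could not be ordered even inside these libraries.

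Because the genes changed by unequal amounts, the make-up of the myelin transcripts differed between the libraries. A level relative to *Mbp* in the same library does not depend on how the libraries were scaled. *Mobp* was at 17.4% of the *Mbp* level in control nerves and 6.17% in mutant nerves. *Mag* was at 8.06% and 5.39%, *Cldn11* at 6.61% and 4.66%, and *Cnp* at 13.6% and 11.3% of *Mbp*. *Opalin* was at 0.869% and 0.715%, and *Tspan2* at 2.15% and 1.45%. For *Mog* (3.52% and 3.49%) and *Mal* (3.28% and 3.34%) the level relative to *Mbp* was almost the same in both libraries. Added up, the 9 genes reached 26425.9 FPKM in control nerves and 15903.1 FPKM in mutant nerves, 60.2% of the control sum, and made up 6.06% and 3.47% of the FPKM of all rows with a gene name. The part of *Mbp* in that sum was 64.3% in control nerves and 73.2% in mutant nerves, and the other 8 genes together were at 45.1% of their control sum. The order of the 9 levels was nearly the same in both libraries (Spearman's rho 0.98 across the 9 genes, which share the libraries), although *Mobp*, second after *Mbp* in the control, was passed by *Cnp* in the mutant. The log2 ratio did not follow the control level (rho −0.083 across the same 9 genes).

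**Figure D3:**
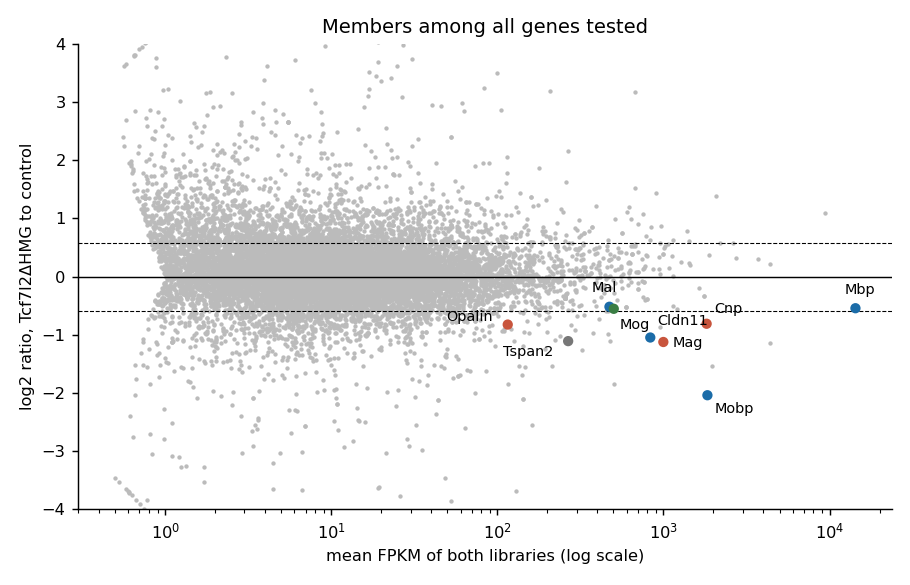
Log2 ratio (*Tcf7l2*ΔHMG to control) against the mean FPKM of both libraries (log axis) for the 14199 genes tested, with the 9 genes labelled and dashed lines at a fold change of 1.5. Log2 ratios outside −4 to 4 (321 genes) are not drawn. The labelled genes lie at the right, at high FPKM and under 0, with *Mobp* lowest.

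The 9 genes lie on 8 different chromosomes, with *Tspan2* and *Cldn11* both on chromosome 3, and none of their rows was merged with another gene name. The rows were assembled in each library separately, and their starts differed between the libraries by up to 769 bases (*Opalin*) and their ends by up to 235 bases (*Mag*), which may enter the length used for FPKM. In the GENCODE M21 annotation (GRCm38), *Mobp* overlaps *Gm38642* on the same strand. On the opposite strand *Mbp* overlaps *Rpl21-ps8*, *Mog* overlaps *Gm22388*, *Cnp* overlaps *Dnajc7*, and *Tspan2* overlaps *Tshb*, *Tspan2os* and *Gm42681*. Strand was not stated for these libraries, so fragments of all such pairs may not be separable. The longest annotated proteins run from 143 residues in *Opalin* to 627 in *Mag*.

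Tcf7l2 and the Sox factors bind DNA through HMG boxes and recognise related short words, so the stretch before each annotated start was read for them. RefSeq windows (GRCm38.p6) were given for 8 of the 9 genes, 11 windows in all because *Mag* and *Tspan2* have several starts, and the 250 bases before each start were searched on both strands. The TCF words were CTTTGAA or CTTTGAT or CTTTGTA or CTTTGTT, and the Sox words were ACAATG and ACAAAG. The latter is the reverse complement of CTTTGT, so that it lies inside the TCF words CTTTGTA and CTTTGTT and the same bases can count for both. The 4 windows printed are those of the genes with 1 start that had the 2 lowest log2 ratios (*Mobp*, *Cldn11*) and the 2 highest (*Mog*, *Mal*), to set the gene that fell most beside those that differed least. Capitals mark the words found.

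*Mobp*, chr9:120149492-120149741, plus strand: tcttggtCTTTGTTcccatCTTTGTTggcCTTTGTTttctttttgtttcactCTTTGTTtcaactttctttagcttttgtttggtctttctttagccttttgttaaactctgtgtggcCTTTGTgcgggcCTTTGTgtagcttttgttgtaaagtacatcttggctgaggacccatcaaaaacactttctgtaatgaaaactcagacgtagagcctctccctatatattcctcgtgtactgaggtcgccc

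*Cldn11*, chr3:31149670-31149919, plus strand: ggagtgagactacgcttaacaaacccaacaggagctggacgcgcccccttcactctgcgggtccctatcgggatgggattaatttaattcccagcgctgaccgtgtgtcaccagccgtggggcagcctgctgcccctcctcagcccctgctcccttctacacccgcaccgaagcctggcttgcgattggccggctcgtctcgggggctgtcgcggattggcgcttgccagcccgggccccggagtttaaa

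*Mog*, chr17:37023399-37023648, minus strand: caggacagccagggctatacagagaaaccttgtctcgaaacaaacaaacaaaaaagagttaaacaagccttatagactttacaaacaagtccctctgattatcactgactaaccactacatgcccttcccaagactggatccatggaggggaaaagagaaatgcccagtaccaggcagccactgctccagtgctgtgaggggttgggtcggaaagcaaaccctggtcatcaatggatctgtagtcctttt

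*Mal*, chr2:127656696-127656945, minus strand: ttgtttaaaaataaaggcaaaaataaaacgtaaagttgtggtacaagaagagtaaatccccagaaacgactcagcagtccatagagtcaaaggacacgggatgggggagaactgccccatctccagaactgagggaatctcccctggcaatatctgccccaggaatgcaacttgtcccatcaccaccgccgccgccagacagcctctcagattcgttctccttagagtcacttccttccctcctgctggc

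The window of *Mobp* held 6 copies of ACAAAG, all on its reverse strand, at 243, 231, 221, 198, 132 and 120 bases before the start, and the first 4 of them were also CTTTGTT. Only 1 of all 32851 RefSeq windows of this length, that of *Mobp* itself, held 6 or more. The number 6 was taken from the *Mobp* window, so this rarity is no test of a link between the words and the fall. The windows of *Cldn11*, *Mog* and *Mal* held none of the words. Among the others, ACAAAG was found once each in *Cnp*, where it was also CTTTGTT, and in *Opalin*, in 1 of the *Tspan2* windows and in 2 overlapping *Mag* windows, which share the same copy. The *Tspan2* window with the word (102734965 to 102735214) lies inside the gene, after its other start. The window of that other start (102734520 to 102734769) held none. In all, 6 of the 11 windows held a Sox word, that *Tspan2* window among them, compared with 25.2% of all windows. A TCF word was held by 2 of the 11, compared with 14.8%. A match of letters is a description of the window, and no binding was measured in these files.

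Among related genes of the OL lineage, 25 of 30 other myelin genes, 8 of 8 transcription factors and 12 of 14 precursor and premyelinating genes had lower values in mutant nerves, fewer of them past the cutoff. Some of these differences were small, such as those of *Gpm6b* (log2 ratio −0.08) and *Pdgfra* (−0.09). *Omg* and *Sirt2*, among the 25 lower myelin genes, were in merged rows in the control library only. Over all genes tested the median log2 ratio was 0.05, so a value under 0 was common among them too. Past the cutoff, 8.52% of all genes tested fell and 15.4% rose. Of the 30 other myelin genes, for further membrane, lipid and cytoskeletal components of the sheath, 12 fell past the cutoff, none rose and 18 did neither, with a median log2 ratio of −0.51. The lowest of those with a mean of at least 10 FPKM were *Ermn*, an actin-binding protein gene of OLs (81.7 to 31.7 FPKM, log2 ratio −1.36), *Ugt8a*, which makes galactosylceramide (303.0 to 141.7 FPKM, −1.10), and *Cd9*, a tetraspanin gene (612.9 to 307.7 FPKM, −0.99). The highest were *Car2*, a carbonic anhydrase gene (54.6 and 74.2 FPKM, 0.44), *Gal3st1*, which sulphates galactosylceramide (81.3 and 93.0 FPKM, 0.19), and *Padi2* (57.2 and 61.4 FPKM, 0.10), none of them past the cutoff. *Mobp* had a lower log2 ratio than every gene of this list.

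Of the 8 transcription factor genes 4 fell past the cutoff, against 8.52% of all genes tested, and the median log2 ratio of the 8 was −0.58. *Olig1* fell from 273.2 to 115.2 FPKM (log2 ratio −1.24), *Sox10* from 144.0 to 76.6 FPKM (−0.91) and *Myrf* from 106.6 to 70.2 FPKM (−0.60), and the other that fell was *Sox8*. *Olig2* (95.6 and 64.8 FPKM, −0.56), *Nkx6-2* (34.4 and 24.6 FPKM, −0.48) and *Nkx2-2* (21.7 and 19.5 FPKM, −0.15) did not pass. Of 14 genes of precursors and premyelinating OLs, 5 fell (*Neu4*, *Enpp6*, *Vcan*, *Gpr17* and *Bcas1*), 1 rose and 8 did neither, and the median was −0.29. Those that fell most were *Neu4*, a sialidase gene (21.6 to 10.6 FPKM, −1.02), and *Enpp6*, a marker of newly formed OLs (158.0 to 84.8 FPKM, −0.90). *Bmp4* rose (38.0 to 68.6 FPKM, 0.85), and *Ptprz1* was at 57.8 and 74.1 FPKM (0.36).

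**Figure D4:**
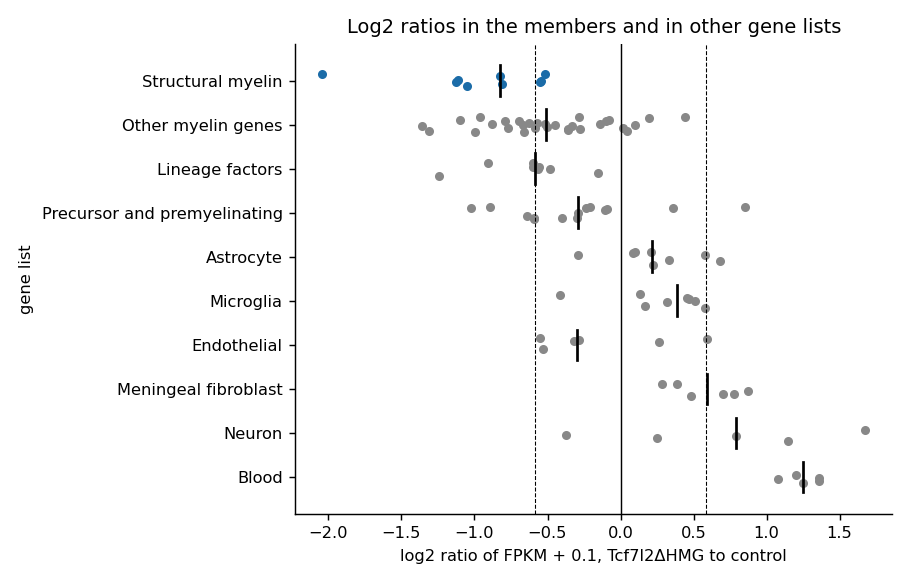
Log2 ratios (*Tcf7l2*ΔHMG to control) of single genes that passed the filter in the 9 structural myelin genes (blue) and in 9 other lists (grey), with black bars at the medians and dashed lines at a fold change of 1.5. The medians are −0.83 for the structural myelin genes, −0.51 for other myelin genes, −0.29 for precursor and premyelinating genes, 0.21 for astrocyte markers and 0.59 for meningeal fibroblast markers.

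Markers of the other cells of the nerve were measured in the same libraries, since a different share of those cells would move FPKM of the myelin genes as well. Their part in the lower myelin values was not tested. Of all genes tested, 15.4% rose past the cutoff, and the counts of astrocyte and endothelial markers that rose were close to that share. The 8 astrocyte markers added up to 5447.5 FPKM in control nerves and 6428.1 FPKM in mutant nerves, with 1 of 8 past the cutoff upward (*Gja1*), and *Gfap* was at 4059.0 and 4729.3 FPKM and *Aqp4* at 181.7 and 148.5 FPKM. The sum over 8 microglial markers was 303.4 and 406.2 FPKM, with none past the cutoff (*Cx3cr1* 16.2 and 17.7, *P2ry12* 15.6 and 17.6 FPKM), and over 6 endothelial markers 124.3 and 108.6 FPKM, with 1 past the cutoff upward, *Cdh5* (*Cldn5* 64.1 and 43.7, *Pecam1* 13.3 and 11.0 FPKM).

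Meningeal fibroblast markers summed to 1487.3 FPKM in control nerves and 2396.4 FPKM in mutant nerves, and 3 of 6 rose (*Dcn*, *Ogn* and *Igf2*), with *Dcn* at 137.4 and 235.4 FPKM, while *Lum* was at 30.5 and 37.2 FPKM. Of 6 neuronal markers, 5 passed the filter and *Snap25*, *Syt1* and *Rbpms* rose, with sums of 29.4 and 42.5 FPKM (*Snap25* 5.92 to 10.3, *Syt1* 1.07 to 3.64 FPKM). All of them were low, and *Syt1* was near the filter in the control. *Nefl* (13.0 and 15.4 FPKM) and *Nefm* (5.46 and 4.20 FPKM) did not pass the cutoff. *Pou4f1*, under the filter, was lower in mutant nerves (0.776 and 0.153 FPKM). Past the cutoff, 15.4% of all genes tested rose. The 5 blood genes all rose, but *Hba-a1* and *Hba-a2* share 1 row (88.7 to 227.9 FPKM) and are not separate measurements. The sum over the list (251.6 to 630.5 FPKM) counts that row once for each of them. Schwann cells, the myelinating cells of peripheral nerves, also express several of the 9 genes. Of their markers, *Prx*, *Egr2* and *Ncmap* were under the filter in both libraries, *Pou3f1* fell from 4.77 to 2.11 FPKM (log2 ratio −1.14), and *Pmp22*, which other cells express too, was at 95.6 and 120.6 FPKM. No marker of these lists was at 0 in either library.

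The targeted gene, *Tcf7l2*, was at 17.8 FPKM in the control library (interval 16.7 to 18.9) and 14.6 FPKM in the mutant library (interval 13.9 to 15.4), a log2 ratio of −0.28. As the allele removes 1 exon in frame and the files give 1 value per gene, this level does not check the genotype. Depth was 27624000 fragments for the control library and 39938000 for the mutant library, read from the interval bounds of short unnamed rows, which fall on whole multiples of 1 fragment. Rows without a gene name held 70.7% of all FPKM of the control library and 80.7% of that of the mutant library, so the scale of the libraries depends on whether they are counted. After centring on the median of all genes tested, 8 of the 9 genes passed the cutoff, and 9.78% of all genes tested fell as much. When only rows with a gene name were set to a common sum, all 9 passed, and 10.7% of all genes tested fell as much.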

How the data were processed

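The series holds 1 Illumina RNA-seq library per genotype, control and *Tcf7l2*ΔHMG, each from P12 optic nerve. The authors used TopHat with its defaults for mapping, and assembled and quantified transcripts in each library with Cufflinks. The deposited tables give FPKM per row with the lower and upper bound of its confidence interval and a status. The submitters' processing notes name mm9, and versions are not given in the sources used here. Positions are those of the files, with starts counted from 1.

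Rows naming several genes were split, FPKM was summed per symbol, and symbols in both libraries were joined. Genes with status OK in both and at least 1 FPKM in at least 1 library were kept. Log2 ratios used a pseudocount of 0.1, which understates changes of low genes. Calls are fold changes above 1.5. No p-value was computed, as each group has 1 library. Depth was the smallest value at which interval bounds of unnamed rows shorter than 100 bases were whole numbers of fragments within 0.05 (99.7% of bounds in the control, 100% in the mutant). The counting was tested on simulated data, a copy of the control library with little noise and changes larger than the cutoff. That checks the code and not the calls in the real libraries.

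The 9 genes, the lists and the cutoff were chosen with earlier results of these data known. The genes named are the 9, *Tcf7l2*, the 3 lowest and 3 highest log2 ratios of the other myelin genes and of the lineage factors (mean of at least 10 FPKM), the 2 lowest and 2 highest of the precursor list and the first 2 markers of each other cell type. *Ptgds* and the members of small counts (such as *Sox8* or *Gja1*) were added after their values were seen, as were the promoter words. The same holds for *Gpm6b*, *Pdgfra*, *Omg*, *Sirt2*, *Nefl*, *Nefm* and *Pou4f1*. One marker of the Schwann cell list is not reported here. Protein sequences were not used here, and *Mbp* had no promoter window. Promoter and gene type tables were from RefSeq (GRCm38.p6), matched by symbol. The software was Python 3.11.15 with scipy 1.17.1, pandas 2.3.3, matplotlib 3.10.9 and numpy 2.4.6.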

Additional observations from a re-analysis of the deposited data

How the results depend on the processing

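The 9 structural myelin genes kept log2 ratios under 0 in all 81 values obtained from 9 alternative settings (2 pseudocounts, 4 scales, the highest row per symbol, any status and unsplit names), and *Mobp* was lowest in each of the 9. The 81 values are not independent. The highest row, any status and unsplit names could not move them, as each gene had 1 row per library, with status OK and unmerged. A change of scale moves all 9 genes nearly alike, so it could hardly change which gene was lowest. With pseudocounts of 1 and 0.01, the median of the 9 was −0.819 and −0.827. The scale moved the medians most. For the 9 genes, the compact and the non-compact genes they were −0.87, −0.84 and −0.87 after centring on the median, −0.87, −0.85 and −0.87 after scaling to the 75th percentile, −0.90, −0.87 and −0.90 with named rows set to a sum of 1000000, and −1.50, −1.47 and −1.50 with all rows set to that sum. In this last setting all 9 passed the cutoff, but so did 7398 genes in all (52.1%), with 640 higher, because unnamed rows hold unequal parts of the libraries. Over all genes, 1210 fell and 2185 rose past the cutoff. With a fold above 2, 522 fell (3.68%) and 975 rose, and 4 of the 9 members fell, and with at least 5 FPKM in 1 library, 1290 rose. Restricting to protein-coding genes, chosen after seeing the data, left 965 that fell (7.67%). Without replicates, no setting measures the variation between animals.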
